A study of Mus musculus with 17 samples.

Results

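Icam1 and Selp encode adhesion molecules that blood vessels display to passing leukocytes. They were 2 of the 988 mouse genes read by a targeted immuno-oncology panel, and were taken by symbol from the count table of each of the 17 libraries. Selp encodes P-selectin, which endothelial cells and platelets store in granules and bring to the surface on activation, where it slows leukocytes into rolling by binding the sugar-decorated ligand encoded by Selplg. Icam1 encodes the immunoglobulin-type receptor that then holds leukocytes fast through the β2 integrins, and tumor necrosis factor and interleukin 1 are known to raise its transcript. In the inflamed gut both act in the recruitment of neutrophils and monocytes. Icam1 is also made by epithelial cells and by leukocytes, and Selp transcript is also carried by platelets and megakaryocytes.

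The study set colon tissue of Kit-W/sh mice, the W-sash mutants whose adults have few mast cells because Kit is misregulated, against that of Kit-B6 mice, which are C57BL/6 with normal Kit. All 17 samples came from mice injected intraperitoneally with azoxymethane, a colon carcinogen, so no group was free of the carcinogen. There were 6 Kit-W/sh tumors and 6 Kit-B6 tumors, taken at postnatal week 32 after 6 injections over 6 weeks and a further 18 weeks. There were 2 Kit-W/sh and 3 Kit-B6 preneoplastic colon samples, taken at week 14 after 3 injections over 3 weeks and a further 3 weeks. Tumor and preneoplastic colon therefore differed in tissue, age and carcinogen dose together, and these cannot be told apart. W-sash mice also carry effects of the mutation outside mast cells, and no sample came from mice with mast cells restored. Whether each sample came from a mouse of its own is not stated in the labels. The deposited names of Kit-B6 tumors 4 and 5 share a stem, so these libraries may come from 1 mouse, and comparisons of Kit-B6 tumors were also computed with both summed as 1 library. All p-values therefore cover the spread among samples, which may be technical in part.

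Levels are given as CPM, the usual scale for a gene's share of its library's counts, after edgeR's TMM scaling. Libraries held between 1049408 and 1262171 counts in Kit-W/sh tumors, 616554 and 1399902 in Kit-B6 tumors, 621141 and 815973 in Kit-W/sh preneoplastic colon, and 616009 and 703549 in Kit-B6 preneoplastic colon. A floor of 3 counts was worth 2.14 to 5.50 CPM, depending on the library. Amplicons differ in efficiency, so levels are compared between samples and not between genes. In pieces of tissue, fewer cells of a type and less RNA per cell cannot be told apart. Of 25 endothelial markers on the list, the panel held Kdr, Nos3 and Cd34, and Pecam1, Cdh5 and Vwf were not measured.

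Some libraries stood apart. The library labelled Kit-W/sh tumor 2 had 460 CPM of the mast cell protease gene Cpa3, against 0 to 9.81 CPM in the other 5 Kit-W/sh tumors and 11.3 to 256 CPM in Kit-B6 tumors, which goes against its label. Kit-B6 tumor 4 had the highest level of Car4, a gene of differentiated colonocytes, at 14800 CPM, against 180 to 3830 CPM in the other Kit-B6 tumors. The main results that rest on either library are given with and without it.

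The promoter windows of Icam1 and Selp are shown because both genes were called higher in tumors and Icam1 is a textbook target of the factors NF-κB and STAT. They are RefSeq sequences on GRCm38.p6 from 250 bases before to 50 bases after the annotated start, plus strand, at chr9:21015690-21015989 for Icam1 and chr1:164115014-164115313 for Selp. The submitters' processing notes name another build and the count tables give no coordinates, so the windows were matched by symbol. Capitals mark matches to 3 patterns picked with the sequences in view.

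Icam1: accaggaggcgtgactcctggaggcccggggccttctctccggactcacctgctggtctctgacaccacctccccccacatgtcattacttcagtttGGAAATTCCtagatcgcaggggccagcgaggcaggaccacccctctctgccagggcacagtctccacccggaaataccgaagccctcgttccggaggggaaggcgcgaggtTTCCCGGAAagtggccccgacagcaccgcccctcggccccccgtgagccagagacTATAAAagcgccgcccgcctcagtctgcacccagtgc
Selp: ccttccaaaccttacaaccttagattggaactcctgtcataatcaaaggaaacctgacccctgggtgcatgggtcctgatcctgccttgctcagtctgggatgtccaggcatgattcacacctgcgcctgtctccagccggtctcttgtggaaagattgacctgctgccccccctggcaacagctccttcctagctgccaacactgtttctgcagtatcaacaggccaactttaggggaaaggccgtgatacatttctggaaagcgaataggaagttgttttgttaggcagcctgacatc

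The Icam1 window held the NF-κB type palindrome GGAANTTCC with its first base at -153, the STAT type palindrome TTCNNNGAA at -42 and a TATAAA at 14, counted from the annotated start. As patterns both palindromes read alike on either strand, though the matched letters differ at the middle base. No match to one pattern overlapped a match to another. Among 32851 RefSeq promoter windows of this length, 0.928% held GGAANTTCC, 8.3% held TTCNNNGAA and 13.6% held TATAAA, on either strand. The Selp window held none of the 3. Neither the Icam1 nor the Selp window held the degenerate NF-κB consensus that 8.46% of windows held. An absence says only that these letters are missing from the window. G and C made up 64.7% of the Icam1 window and 51.7% of the Selp window. A match is a description and was not tested as a site.

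Icam1 was higher in tumors than in preneoplastic colon in both genotypes. The 6 Kit-W/sh tumors had 463, 362, 448, 533, 607 and 509 CPM, against 59.7 and 92.2 CPM in Kit-W/sh preneoplastic colon. The 6 Kit-B6 tumors had 678, 258, 375, 138, 359 and 347 CPM, against 47.7, 94.3 and 62.0 CPM in Kit-B6 preneoplastic colon. Every tumor lay above every preneoplastic sample of its genotype, and Kit-B6 tumor 4 was the lowest tumor. The Icam1 level averaged 487 ± 83.5 CPM over Kit-W/sh tumors and 75.9 ± 23.0 CPM over Kit-W/sh preneoplastic samples (SD, n = 6 and 2). It averaged 359 ± 179 CPM in Kit-B6 tumors and 68.0 ± 23.9 CPM in Kit-B6 preneoplastic colon (SD, n = 6 and 3). The log2 fold change of tumor over preneoplastic colon was 2.67 ± 0.49 (SE) in Kit-W/sh mice, with an adjusted p of 0.000772 by edgeR's quasi-likelihood test with Benjamini-Hochberg adjustment over all genes tested. It was 2.40 ± 0.41 in Kit-B6 mice, with an adjusted p of 0.000313 by the same edgeR test.

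Selp was likewise higher in tumors of both genotypes. Its level was 165, 52.4, 199, 201, 91.6 and 236 CPM in the 6 Kit-W/sh tumors, against 10.9 and 22.0 CPM in Kit-W/sh preneoplastic colon. It was 73.5, 55.9, 103, 49.4, 23.5 and 83.7 CPM in the 6 Kit-B6 tumors, against 7.33, 16.3 and 4.65 CPM in Kit-B6 preneoplastic colon. The groups of each genotype did not overlap, although the preneoplastic libraries held only 3 to 16 Selp counts each. The Selp level averaged 157 ± 71.0 CPM over Kit-W/sh tumors and 16.4 ± 7.90 CPM over Kit-W/sh preneoplastic samples (SD, n = 6 and 2). It averaged 64.8 ± 28.0 CPM in Kit-B6 tumors and 9.44 ± 6.12 CPM in Kit-B6 preneoplastic colon (SD, n = 6 and 3). The log2 fold change was 3.23 ± 0.72 (SE) in Kit-W/sh mice, with an edgeR adjusted p of 0.00296, and 2.78 ± 0.62 in Kit-B6 mice, with an edgeR adjusted p of 0.00256. The Kit-W/sh call rested on Kit-W/sh preneoplastic sample 1, without which the log2 fold change was 2.83 and the edgeR adjusted p was 0.0604.

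These calls were made in a panel in which many genes moved with stage. In Kit-W/sh mice 20.9% of 869 genes were called higher in tumors, 18.8% lower and 39.7% in either direction. In Kit-B6 mice 22.2% were called higher, 18.9% lower and 41.1% in either direction. Groups with every tumor above every preneoplastic sample were seen for 29.6% of genes in Kit-W/sh mice and 16.2% in Kit-B6 mice. By p-value, Icam1 ranked 52 and Selp 102 among 869 genes in Kit-W/sh mice, and Icam1 ranked 54 and Selp 122 in Kit-B6 mice. An exact permutation test of the difference in mean log2(CPM + 1), two-sided, gave its smallest possible p for both genes, 0.0714 in Kit-W/sh mice and 0.0238 in Kit-B6 mice, or 0.114 and 0.0635 after adjustment over 8 tests. With unscaled library totals the median log2 fold change of all genes was 0.335 in Kit-W/sh mice and 0.244 in Kit-B6 mice, a shift from the TMM medians of 0.254 in Kit-W/sh mice and 0.247 in Kit-B6 mice, and the share of calls that were higher rose to 70.1%, against 52.8% with TMM, in Kit-W/sh mice. In Kit-B6 mice that share was 73% unscaled and 54.1% with TMM.

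**Figure D1:**
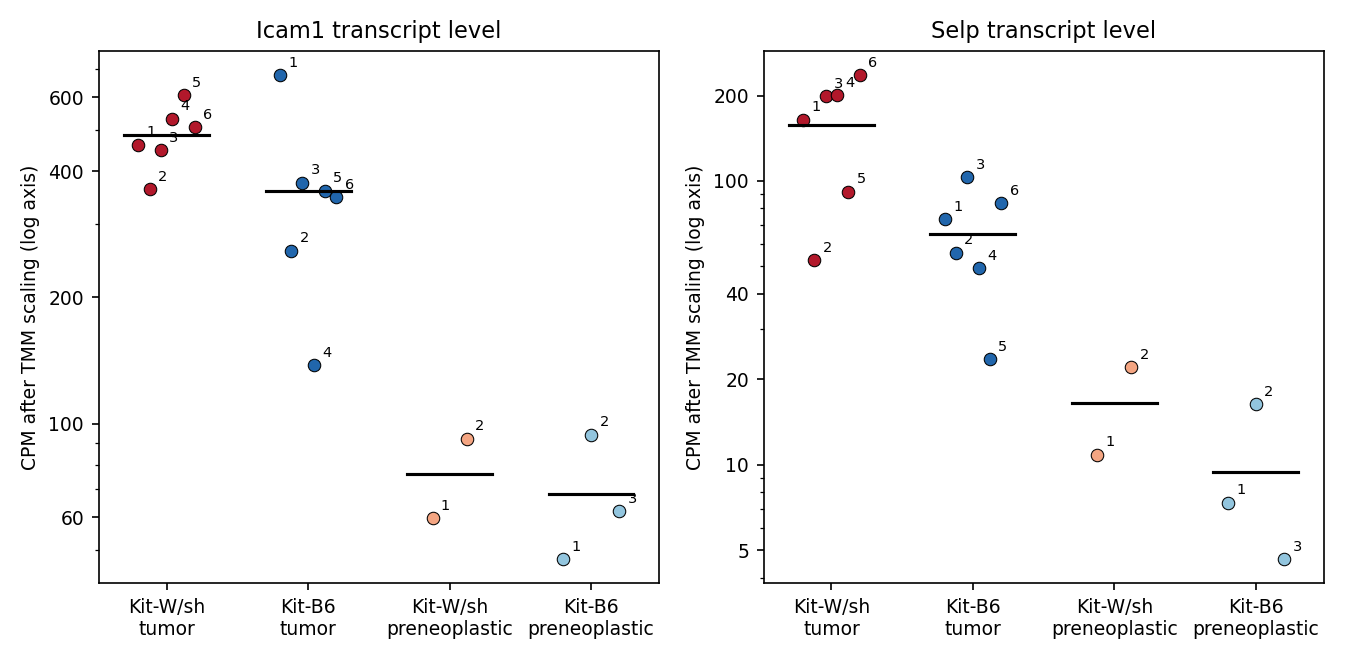
CPM after TMM scaling (log axis) of Icam1, left, and Selp, right, in each of the 17 libraries, with replicate numbers beside the points and a bar at each group mean. Icam1 spans 138 to 678 CPM in tumors and 47.7 to 94.3 CPM in preneoplastic colon, and Selp spans 23.5 to 236 CPM in tumors and 4.65 to 22.0 CPM in preneoplastic colon.

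The measured endothelial genes did not pass the test between stages. Kdr, the main receptor for vascular endothelial growth factor A, had a log2 fold change of 0.16 in Kit-W/sh mice and 0.38 in Kit-B6 mice. Nos3, endothelial nitric oxide synthase, had 0.44 in Kit-W/sh mice and 0.71 in Kit-B6 mice. Cd34, a sialomucin of capillary endothelium and progenitor cells, had 0.36 in Kit-W/sh mice and 0.54 in Kit-B6 mice. The summed level of the 3 genes was 343 to 541 CPM in Kit-W/sh tumors, 249.9 to 899.7 CPM in Kit-B6 tumors, 307.5 to 447 CPM in Kit-W/sh preneoplastic colon and 325 to 478.5 CPM in Kit-B6 preneoplastic colon. None of the 3 was at 0 in any library. On a scale relative to their mean log2 level, mean Icam1 was higher in tumors by 2.3 in Kit-W/sh mice and 1.83 in Kit-B6 mice, and mean Selp by 2.71 in Kit-W/sh mice and 2.23 in Kit-B6 mice. For Selp the Kit-B6 groups then overlapped, with tumor 5 at -2.338 and preneoplastic sample 2 at -2.056. Exact permutation tests on this scale gave adjusted p-values of 0.0952 for both genes in Kit-W/sh mice, where the smallest possible unadjusted p was 0.0714. In Kit-B6 mice the adjusted permutation p was 0.0866 for Icam1 and 0.0952 for Selp.

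Platelet chemokine genes were called higher beside Selp. Of 14 platelet markers on the list, 4 were measured and 3 were tested, and Pf4 and Ppbp, which encode chemokines of the platelet α-granule, were called higher in tumors of both genotypes. Pf4 had a log2 fold change of 1.47 ± 0.38 in Kit-W/sh mice and 1.67 ± 0.33 in Kit-B6 mice, with edgeR adjusted p-values of 0.00678 for Kit-W/sh and 0.000987 for Kit-B6 mice. Itgb3, the β3 integrin subunit, had 1.20 in Kit-W/sh mice and 0.91 in Kit-B6 mice and did not pass, but was called without Kit-B6 tumor 4, with edgeR adjusted p-values of 0.0469 in Kit-W/sh mice and 0.0439 in Kit-B6 mice. The summed level of the tested platelet genes was 324 to 1439 CPM in Kit-W/sh tumors, 299.5 to 884 CPM in Kit-B6 tumors, 118 to 209 CPM in Kit-W/sh preneoplastic colon and 139.7 to 198 CPM in Kit-B6 preneoplastic colon. The part of platelets in the Selp result was not tested.

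Itgam and Itgb2, leukocyte partners of Icam1, were also higher in tumors of both genotypes. Icam1 binds integrins made of the common β2 subunit, Itgb2, with the α subunit Itgal (LFA-1, on lymphocytes and myeloid cells) or Itgam (Mac-1, on neutrophils and macrophages). Itgam had 185 to 253 CPM in Kit-W/sh tumors, against 19.9 and 20.6 CPM in Kit-W/sh preneoplastic colon, and 45.3 to 241 CPM in Kit-B6 tumors, against 33.0 to 43.5 CPM in Kit-B6 preneoplastic colon. Its log2 fold change was 3.43 ± 0.51 in Kit-W/sh mice and 2.11 ± 0.39 in Kit-B6 mice, with edgeR adjusted p-values of 0.000184 for Kit-W/sh and 0.00061 for Kit-B6 mice. Itgb2 rose by 2.52 ± 0.49 in Kit-W/sh mice and by 1.48 ± 0.38 in Kit-B6 mice on the log2 scale, with edgeR adjusted p-values of 0.00115 for Kit-W/sh and 0.00656 for Kit-B6 mice. Itgal was called in Kit-W/sh mice, at 1.73 ± 0.51 with an edgeR adjusted p of 0.0143, and had 0.83 ± 0.41 in Kit-B6 mice with an edgeR adjusted p of 0.107. Without Kit-B6 tumor 4 Itgal was called in Kit-B6 mice too, at 1.01 with an edgeR adjusted p of 0.0238.

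The P-selectin ligand differed in which comparison passed. Selplg, which encodes PSGL-1 on leukocytes, had 163 to 264.5 CPM in Kit-W/sh tumors, against 71.6 and 76.0 CPM in Kit-W/sh preneoplastic colon. It had 81.3 to 216 CPM in Kit-B6 tumors, against 84.3 to 172 CPM in Kit-B6 preneoplastic colon, and these groups overlapped. Its log2 fold change was 1.48 ± 0.37 in Kit-W/sh mice, with an edgeR adjusted p of 0.00556, and 0.27 in Kit-B6 mice, which did not pass. The difference between the genotypes' stage changes was 1.21 ± 0.46 for Selplg, with an edgeR adjusted p of 0.66, so a difference was not shown. Gcnt1, an enzyme that builds the branched sugars on which P-selectin binding depends, passed in neither genotype with all libraries. Its log2 fold change was -0.91 in Kit-W/sh mice, with an edgeR adjusted p of 0.132, and 0.22 in Kit-B6 mice. Without Kit-B6 tumor 4, which enters the shared estimate of the spread, it was called lower in Kit-W/sh mice, at -0.91 with an edgeR adjusted p of 0.0448, and was -0.21 in Kit-B6 mice, where it did not pass.

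Among the other vascular adhesion genes, Sele and Vcam1 were called in Kit-W/sh mice. Sele encodes E-selectin, the inducible endothelial selectin, and had 10.6, 7.71, 19.6, 40.9, 4.28 and 33.9 CPM in the 6 Kit-W/sh tumors, with 0 counts in both Kit-W/sh preneoplastic libraries. Set against a floor of 3 counts over those 2 libraries together, its level was at least 9.79-fold higher in Kit-W/sh tumors. Kit-B6 tumors had 11.3, 4.19, 8.41, 2.06, 2.14 and 8.25 CPM of Sele, and the 3 Kit-B6 preneoplastic libraries held 0, 1 and 1 counts. Vcam1, which binds α4 integrins, had a log2 fold change of 1.75 ± 0.55 in Kit-W/sh mice, with an edgeR adjusted p of 0.0206, and 1.05 ± 0.44 (SE) in Kit-B6 mice, with an edgeR adjusted p of 0.0657. Without Kit-B6 tumor 4 Vcam1 was called in Kit-B6 mice as well, at 1.19 with an edgeR adjusted p of 0.0332. Cx3cl1, the membrane-bound chemokine fractalkine, fell by 1.07 on the log2 scale in Kit-W/sh tumors, with an edgeR adjusted p of 0.0199.

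Of the 33 adhesion and leukocyte traffic genes listed besides Icam1 and Selp, 17 were measured. In Kit-W/sh mice 9 of the 17 were called higher in tumors, beside 20.9% of all 869 genes, and 1 lower, beside 18.8%. The median log2 fold change over the 17 was 1.22, beside 0.08 over all genes tested. The median is the same with Sele set at its bound. In Kit-B6 mice 5 of the 17 were called higher, beside 22.2% of all 869 genes, and 0 lower, beside 18.9%. The median over the 17 was 0.83, beside -0.00273 over all genes. The 5 were Itgam, Itgb2, Cd44 (the hyaluronan receptor), Itgav and Itgb1 (integrin subunits that bind matrix), and they were also called in Kit-W/sh mice. Without Kit-B6 tumor 4 the Kit-B6 count was 8 higher and 0 lower, with Itgal, Itgb3 and Vcam1 added, and the Kit-W/sh count was 10 higher and 2 lower. Without the library labelled Kit-W/sh tumor 2 the Kit-W/sh count was 10 higher and 1 lower. With unscaled totals 11 were higher and 1 lower in Kit-W/sh mice and 8 were higher in Kit-B6 mice. Scaled to the 2 measured reference genes, Rpl13a and Tfrc, 7 were higher and 0 lower in Kit-W/sh mice. Itgal, Vcam1 and Cx3cl1 were then no longer called in Kit-W/sh mice, with edgeR adjusted p-values of 0.0611, 0.0645 and 0.0728.

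**Figure D2:**
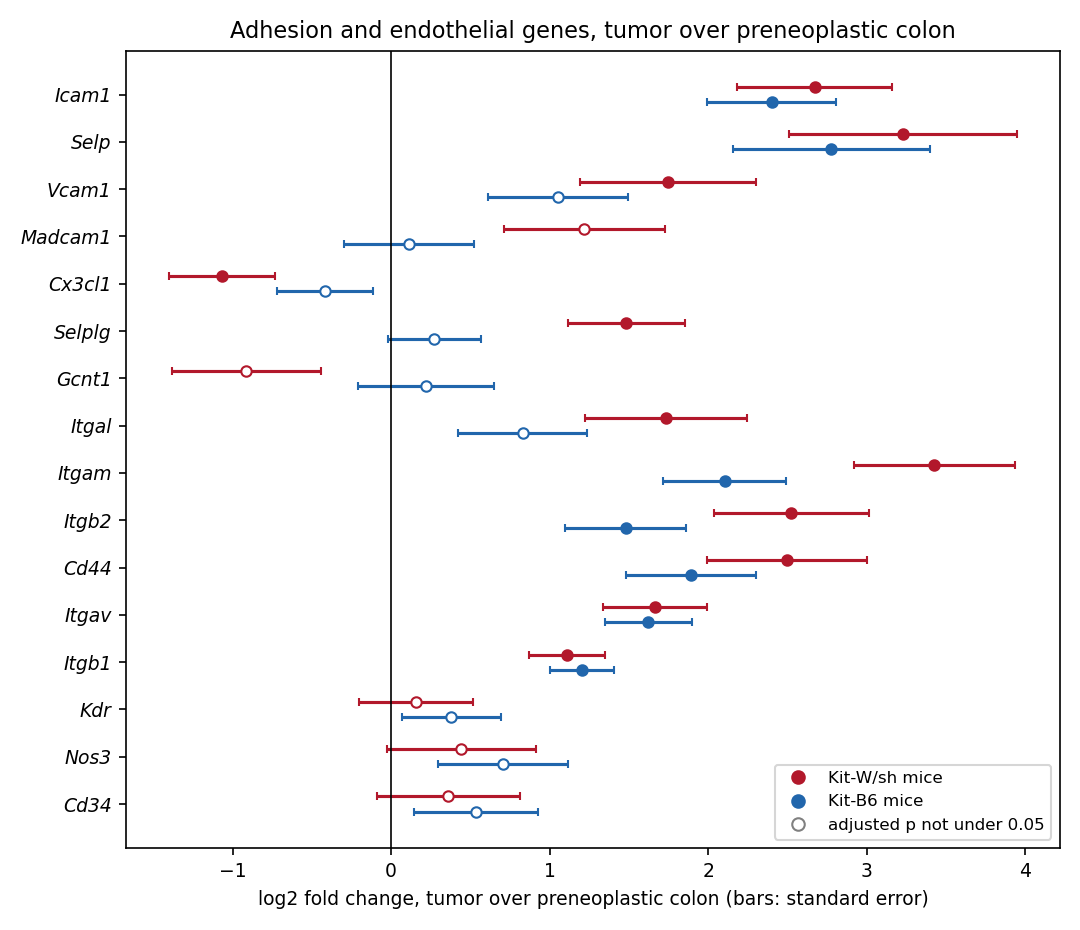
log2 fold change of tumor over preneoplastic colon, with standard errors, for Icam1, Selp, 11 other adhesion genes and the 3 measured endothelial genes, in Kit-W/sh and Kit-B6 mice. Icam1 and Selp lie between 2.40 and 3.23, and the endothelial genes Kdr, Nos3 and Cd34 between 0.16 and 0.71 with open symbols, which mark changes that did not pass.

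Myeloid genes were higher in tumors beside Icam1 and Selp. The counts below stand beside 20.9% of all 869 genes called higher and 18.8% lower in Kit-W/sh tumors. In Kit-B6 tumors these shares were 22.2% and 18.9%. Of 7 neutrophil genes tested, 5 were called higher in tumors of each genotype: Cxcr2 and Csf3r (receptors for neutrophil chemokines and for granulocyte colony-stimulating factor), Fpr1 and Fpr2 (formyl peptide receptors) and Il1r2 (the interleukin 1 decoy receptor). Cxcr2 had 121 to 402 CPM among Kit-W/sh tumors and 29.8 to 107 CPM among Kit-B6 tumors, against 0 to 2 counts in each preneoplastic library. Cd177 was not called and had lower means in tumors. They were 3475 CPM against 4074 CPM in Kit-W/sh mice, and 1951 CPM against 4731 CPM in Kit-B6 mice. Without Kit-B6 tumor 4, 6 neutrophil genes were called higher in each genotype, with Cxcr1 added. Without the library labelled Kit-W/sh tumor 2, 6 were called higher in Kit-W/sh tumors. Of 14 monocyte and macrophage genes tested, 11 were called higher and 2 lower in Kit-W/sh tumors, and 6 higher and 1 lower in Kit-B6 tumors. With reference gene scaling the counts were 4 higher and 1 lower in Kit-W/sh mice (Cd33, Fcgr3, Itgam and Msr1 higher) and 4 higher and 1 lower in Kit-B6 mice, and without Kit-B6 tumor 4 the Kit-B6 count was 9 higher and 2 lower. Without the library labelled Kit-W/sh tumor 2 the Kit-W/sh count was 9 higher and 2 lower. Msr1, a macrophage scavenger receptor, had a log2 fold change of 2.41 ± 0.55 in Kit-W/sh mice and 2.02 ± 0.45 in Kit-B6 mice, with edgeR adjusted p-values of 0.00336 and 0.0025. Of 12 tested cytokines known to act on endothelium, 6 were called higher and 2 lower in Kit-W/sh tumors, and 5 higher and 2 lower in Kit-B6 tumors. Il1a, Il1b and Il33, all of the interleukin 1 family, were among those called higher in both genotypes. Il18, of the same family, was called lower in Kit-W/sh tumors, and Tnf was called in neither genotype. The other genes called lower were Il13 in both genotypes and Lta in Kit-B6 tumors. Without Kit-B6 tumor 4, 6 of 11 tested cytokines were called higher and 1 lower in Kit-B6 tumors. Of 11 genes of NF-κB signalling, 1 was called higher and 3 lower in Kit-W/sh tumors, and 2 higher and 3 lower in Kit-B6 tumors. Rela, a transcribing subunit of NF-κB, rose by 0.60 ± 0.21 in Kit-W/sh mice and by 0.64 ± 0.18 in Kit-B6 mice on the log2 scale, with edgeR adjusted p-values of 0.032 and 0.00998. In Kit-W/sh mice 9 of the 11 NF-κB genes lay on the lower side, with a median of -0.30, beside 0.08 over all genes. In Kit-B6 mice 7 of the 11 lay on the lower side, with a median of -0.09, beside -0.00273. Both mouse genotypes' comparisons use separate samples, but all 4 groups shared an estimate of the spread.

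Between the genotypes' tumors, the mean level of Selp was 157 CPM for Kit-W/sh and 64.8 CPM for Kit-B6, and the difference did not pass the test over all genes. Kit-W/sh tumors 1, 3, 4 and 6 lay above every Kit-B6 tumor, and the groups overlapped through Kit-W/sh tumors 2 and 5. The log2 fold change was 1.27 ± 0.40, with an unadjusted p of 0.00703 and an adjusted p of 0.198 by edgeR, and an adjusted p of 0.0547 by DESeq2. By p-value Selp ranked 28 among the 799 genes tested, of which edgeR called 0%, and 109 (13.6%) had an unadjusted p under 0.05. DESeq2 called 24 genes. The exact permutation test, two-sided, gave a difference of 1.23 in mean log2(CPM + 1) with p = 0.0238, or 0.0635 after adjustment over 8 tests. Without the library labelled Kit-W/sh tumor 2, which had the lowest Selp of the Kit-W/sh tumors, the log2 fold change was 1.45 with an edgeR adjusted p of 0.0517, and the exact permutation p was 0.00866 (adjusted 0.0635). With Kit-B6 tumors 4 and 5 summed the log2 fold change was 1.17 with an edgeR adjusted p of 0.197, and the exact permutation p was 0.0433. Relative to Kdr, Nos3 and Cd34, Selp was 0.388 ± 0.731 in Kit-W/sh tumors and -1.07 ± 0.681 in Kit-B6 tumors (log2, SD, n = 6 each), with an exact permutation p of 0.00866, or 0.0693 adjusted over 8 tests.

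Icam1 was not shown to differ between the genotypes' tumors. The mean level was 487 CPM for Kit-W/sh and 359 CPM for Kit-B6, and the log2 fold change was 0.43 ± 0.29 with an edgeR adjusted p of 0.529. All 6 Kit-W/sh tumors lay above the Kit-B6 median, but none lay above Kit-B6 tumor 1, which had the highest Icam1 of all libraries. The exact permutation test, two-sided, gave a difference of 0.573 in mean log2(CPM + 1) with p = 0.102 (adjusted 0.136). The highest Icam1 level was 1.68 times the lowest among Kit-W/sh tumors and 4.91 times the lowest among Kit-B6 tumors, a description of 6 libraries each that was not tested. The ratio among Kit-B6 tumors was 2.62 without tumor 4 and 2.72 without tumor 1. Without Kit-B6 tumor 1 the log2 fold change was 0.68 with an edgeR adjusted p of 0.282, and without Kit-B6 tumor 4 it was 0.23 with an edgeR adjusted p of 0.741.

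Sele was under the count filter of this comparison. Fitted without the filter, it had a log2 fold change of 1.64 ± 0.61 in Kit-W/sh over Kit-B6 tumors, with an edgeR adjusted p of 0.296. Of the 16 other adhesion genes tested between the tumors, 0 were called, 10 had a fold change above 0 and their median log2 fold change was 0.17, beside -0.01 over all genes. Among cytokines, 9 of 10 lay on the higher side with a median of 1.62, and 0 were called. All 6 neutrophil genes tested lay on the higher side, with Cxcr2 at 1.49 ± 0.34 and Fpr1 at 1.81 ± 0.48, each with an edgeR adjusted p of 0.154. Kdr, Nos3 and Cd34 lay on the lower side, at -0.28, -0.30 and -0.34, and did not pass.

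In preneoplastic colon the genotypes were not shown to differ for either gene. Icam1 averaged 75.9 ± 23.0 CPM in Kit-W/sh and 68.0 ± 23.9 CPM in Kit-B6 samples (SD, n = 2 and 3), with a log2 fold change of 0.14 ± 0.44 and an edgeR adjusted p of 0.931. edgeR called 0.129% of 777 genes in this comparison. Selp was below the count filter, with 6 and 16 counts in Kit-W/sh samples and 4, 9 and 3 counts in Kit-B6 samples. The Kit-W/sh over Kit-B6 ratio of Selp counts scaled by library totals was 1.89, with an exact 95% interval of 0.947 to 3.85 that covers counting error only. The exact permutation test, two-sided, gave p = 1 for Icam1 and p = 0.4 for Selp, where the smallest possible p was 0.2. The change with stage did not differ detectably between genotypes, by 0.27 ± 0.56 for Icam1 and 0.45 ± 0.88 for Selp on the log2 scale (Kit-W/sh minus Kit-B6), with edgeR adjusted p-values of 0.957 and 0.949. For this difference edgeR called 0% of 869 genes, and 63 genes (7.25%) had an unadjusted p under 0.05.

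The levels of both genes were then related to myeloid genes between tumors, by correlating log2(CPM + 1) with the mean log2(CPM + 1) of each gene list over the 12 tumors. In all, 35 relations were computed in a family and p-values were adjusted over them. The points share the library total, and the correlation with log2 library total was 0.394 for Icam1 and 0.0336 for Selp. The median Pearson r with all 798 other genes tested was 0.068 for Icam1 and 0.027 for Selp. These values spread widely, with 5% and 95% points of -0.772 and 0.755 for Icam1 and -0.525 and 0.599 for Selp. They describe single genes and not list means.

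The relation of Icam1 with neutrophil genes was positive but did not pass the adjustment, and over all 12 tumors the size of r depended largely on Kit-B6 tumor 4. Over 6 neutrophil genes Pearson's r was 0.759 with a permutation p of 0.00938 (adjusted 0.0547), and Spearman's rho was 0.573 with a permutation p of 0.0563 (adjusted 0.257). Without Kit-B6 tumor 4 and Kit-W/sh tumor 5, the libraries farthest from the median, r was 0.25, and without Kit-B6 tumor 4 alone it was 0.391. The mean neutrophil level was 7.61 to 8.49 in Kit-W/sh tumors and 5.41 to 7.61 in Kit-B6 tumors, so the genotypes adjoined without overlap on this axis. Within Kit-W/sh tumors r was 0.84 with an exact permutation p of 0.0278 (adjusted 0.146, n = 6). Within Kit-B6 tumors r was 0.655 with an exact permutation p of 0.222 (adjusted 0.778, n = 6), and it turned to -0.695 without tumors 4 and 5. With Kit-B6 tumors 4 and 5 summed, r over the 11 libraries was 0.495 (permutation p of 0.123, adjusted 0.252). Of the 6 genes, Cd177 alone had a negative r with Icam1, at -0.194 over 12 tumors, -0.26 within Kit-W/sh and -0.61 within Kit-B6 tumors.

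The relation of Icam1 with monocyte and macrophage genes did not pass the adjustment either. Over 12 tumors r was 0.778 with a permutation p of 0.0083 (adjusted 0.0547), and rho was 0.517 with a permutation p of 0.0863 (adjusted 0.302). Without Kit-B6 tumors 1 and 4, and so over a shorter range of the list level, r was 0.145, so its size depended on them. Within Kit-W/sh tumors r was -0.711 with an exact permutation p of 0.108 (adjusted 0.316), and within Kit-B6 tumors it was 0.888 with an exact permutation p of 0.0375 (adjusted 0.369), with n = 6 each. Without tumors 2 and 3 the Kit-W/sh r turned to 0.59, and without tumors 1 and 4 the Kit-B6 r was 0.224. Each of these values used the 4 libraries left, over a shorter range of the list level. The opposite signs were thus not kept without those libraries, and 4 points cannot settle either sign. With Kit-B6 tumors 4 and 5 summed r was 0.543 over 11 libraries (permutation p of 0.0826, adjusted 0.228). The monocyte and macrophage list spanned 7.89 to 8.24 in Kit-W/sh tumors and 6.85 to 8.49 in Kit-B6 tumors on its mean log2(CPM + 1) scale.

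Among the inflammatory lists, that of the ligands of the neutrophil receptor Cxcr2 had the highest Pearson r with Icam1 over 12 tumors. For these 6 chemokine genes r was 0.795 over 12 tumors with a permutation p of 0.00553 (adjusted 0.0489), and rho was 0.58 with a permutation p of 0.0517 (adjusted 0.257). The r was 0.345 without Kit-B6 tumor 4 and Kit-W/sh tumor 5, so its size depended on those libraries. Leaving them out also shortened the range of the list level, which by itself can lower r. Without either Kit-B6 tumor 4 or the library labelled Kit-W/sh tumor 2 alone, r ranged from 0.474 to 0.796. Within Kit-W/sh tumors r was 0.923 with an exact permutation p of 0.0111 (adjusted 0.122), and within Kit-B6 tumors it was 0.695 (adjusted exact p of 0.778). The Kit-W/sh r was 0.475 without tumors 2 and 5, and the Kit-B6 r turned to -0.194 without tumors 4 and 5. For the 10 cytokine genes r was 0.759 over 12 tumors with a permutation p of 0.00559 (adjusted 0.0489), and rho was 0.497 (permutation p of 0.105, adjusted 0.321). The cytokine r was 0.352 without Kit-B6 tumor 4 and Kit-W/sh tumor 5, again over a shorter range. It ranged from 0.49 to 0.759 without either Kit-B6 tumor 4 or the library labelled Kit-W/sh tumor 2 alone. The cytokine r within Kit-W/sh tumors was 0.885 (adjusted exact p of 0.122) and within Kit-B6 tumors 0.688 (adjusted exact p of 0.778), where rho was -0.0286 and r turned to -0.794 without tumors 3 and 4. With Kit-B6 tumors 4 and 5 summed, r was 0.506 for Cxcr2 ligands (adjusted permutation p of 0.252) and 0.558 for cytokines (adjusted permutation p of 0.228).

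Of the 4 epithelial genes, Car4 and Ceacam1, a cell adhesion molecule, had negative coefficients with Icam1 in both genotypes, and Epcam and Muc1 had coefficients of either sign. The r of Icam1 over 12 tumors was -0.727 with Car4, -0.784 with Ceacam1, -0.107 with Epcam and 0.158 with Muc1. In the 6 Kit-W/sh tumors r was -0.942 with Car4 and -0.929 with Ceacam1 but 0.841 with Epcam and 0.656 with Muc1. Within Kit-B6 tumors it was -0.783, -0.773, -0.356 and -0.112 with Car4, Ceacam1, Epcam and Muc1. For the mean of Epcam, Muc1, Ceacam1 and Car4 r was -0.764 over 12 tumors with a permutation p of 0.00419 (adjusted 0.0489), and rho was -0.566 with a permutation p of 0.0587 (adjusted 0.257). The r was -0.807 without Kit-B6 tumors 4 and 5, -0.539 without Kit-B6 tumor 4 alone, and -0.839 with Kit-B6 tumors 4 and 5 summed (adjusted permutation p of 0.0241). In Kit-W/sh tumors alone the r of the list mean was -0.866 (adjusted exact p of 0.146) and within Kit-B6 tumors -0.825 (adjusted exact p of 0.369). The part of tissue composition in the Icam1 relations was not tested. For the 3 endothelial genes r with Icam1 was 0.244 (permutation p of 0.443, adjusted 0.704) and rho was 0.189 (permutation p of 0.56, adjusted 0.741).

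No relation of Selp with the neutrophil or the monocyte and macrophage list passed the adjustment. With neutrophil genes r was 0.494 over 12 tumors with a permutation p of 0.101 (adjusted 0.283), rho was 0.594 (permutation p of 0.0451, adjusted 0.257) and r was 0.539 without the 2 farthest libraries. It was 0.193 within Kit-W/sh tumors and -0.0507 within Kit-B6 tumors, with adjusted exact p-values of 0.864 and 0.967. With Kit-B6 tumors 4 and 5 summed it was 0.639 over 11 libraries (permutation p of 0.0376, adjusted 0.228). With monocyte and macrophage genes r was 0.0189 over 12 tumors (permutation p of 0.955, adjusted 0.955) and rho was -0.042 (permutation p of 0.903, adjusted 0.959). Without Kit-B6 tumor 4 that r was -0.361. Between Selp and Icam1 themselves r was 0.489 over 12 tumors (permutation p of 0.105, adjusted 0.283), rho was 0.594 (permutation p of 0.0457, adjusted 0.257) and r was 0.617 without Kit-B6 tumors 1 and 4. The r was 0.42 within Kit-W/sh tumors and 0.25 within Kit-B6 tumors, with adjusted exact p-values of 0.647 and 0.967.

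The relation of Selp that passed the adjustment by both measures was with mast cell genes, and it was negative. Over 7 mast cell genes, Kit and Cpa3 among them, r was -0.837 with a permutation p of 0.00049 (adjusted 0.0171), and rho was -0.839 with a permutation p of 0.00105 (adjusted 0.0367). The libraries with the highest mast cell levels, the one labelled Kit-W/sh tumor 2 at 7.26 and Kit-B6 tumor 5 at 7.06, had the lowest Selp of their groups, 52.4 CPM for the library labelled Kit-W/sh tumor 2 and 23.5 CPM for Kit-B6 tumor 5. Without these libraries r was -0.78, and with Kit-B6 tumors 4 and 5 summed it was -0.847 (permutation p of 0.00077, adjusted 0.0241). The other Kit-W/sh tumors had mast cell levels of 3.07 to 4.36 and the other Kit-B6 tumors 4.61 to 5.49, so the genotypes were separate on this axis apart from these libraries, and the pooled r also carries the difference between genotypes. Within Kit-W/sh tumors r was -0.819 with an exact permutation p of 0.0736 (adjusted 0.258), and -0.0688 without tumors 2 and 3. Within Kit-B6 tumors r was -0.889 with an exact permutation p of 0.0375 (adjusted 0.369), and -0.392 without tumors 5 and 6. Within a genotype only 4 libraries were then left, over a shorter range, too few to show whether the relation holds without those libraries. The summed mast cell level was 159 to 1378 CPM among Kit-W/sh tumors and 408 to 1420 CPM among Kit-B6 tumors.

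**Figure D3:**
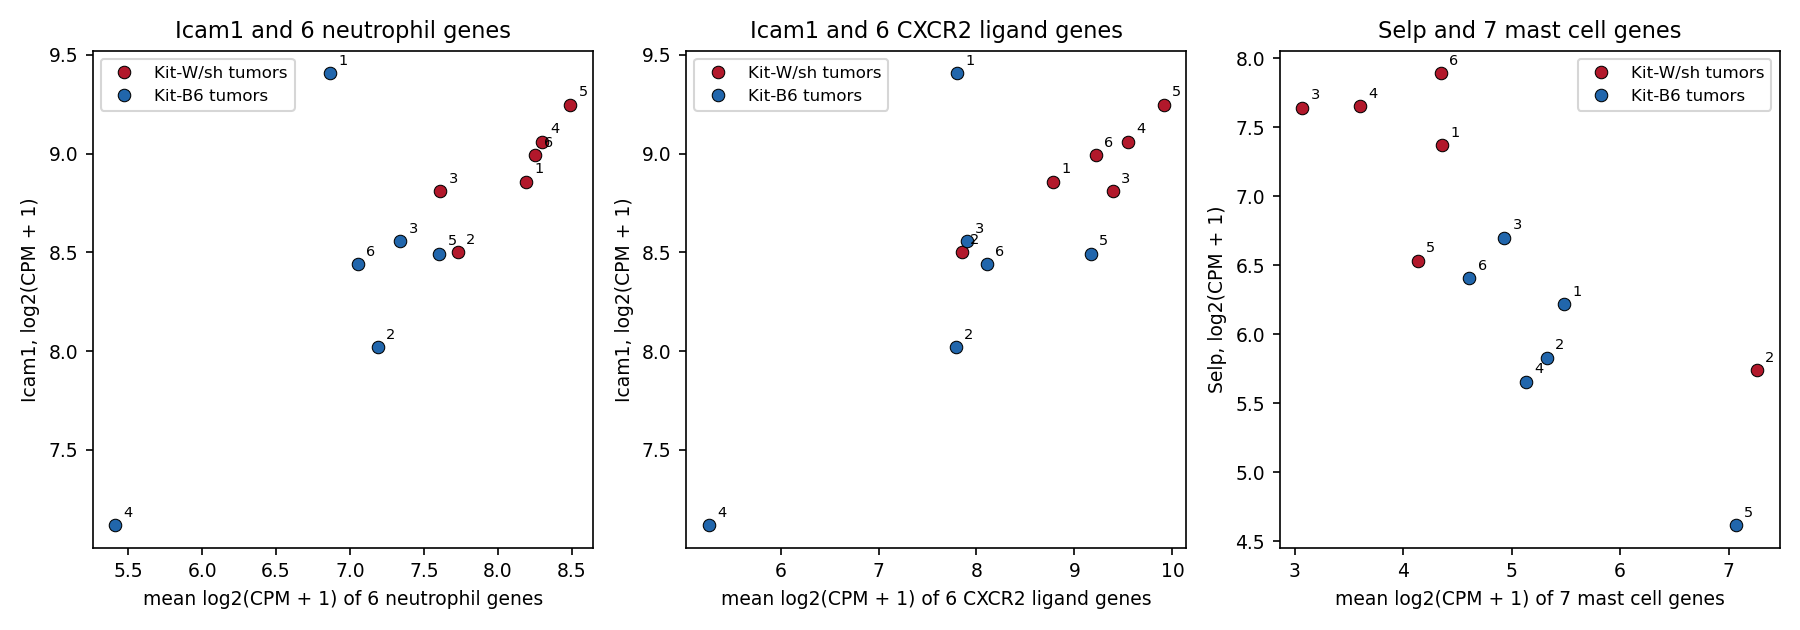
log2(CPM + 1) of Icam1 against the mean log2(CPM + 1) of 6 neutrophil genes (left) and 6 Cxcr2 ligand genes (centre), and of Selp against that of 7 mast cell genes (right), in 12 tumors with replicate numbers. Kit-B6 tumor 4 lies alone at the low end of both Icam1 panels, at 5.41 and 5.27, and the library labelled Kit-W/sh tumor 2 and Kit-B6 tumor 5 lie at the high end of the mast cell axis, at 7.26 and 7.06.

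**Figure D4:**
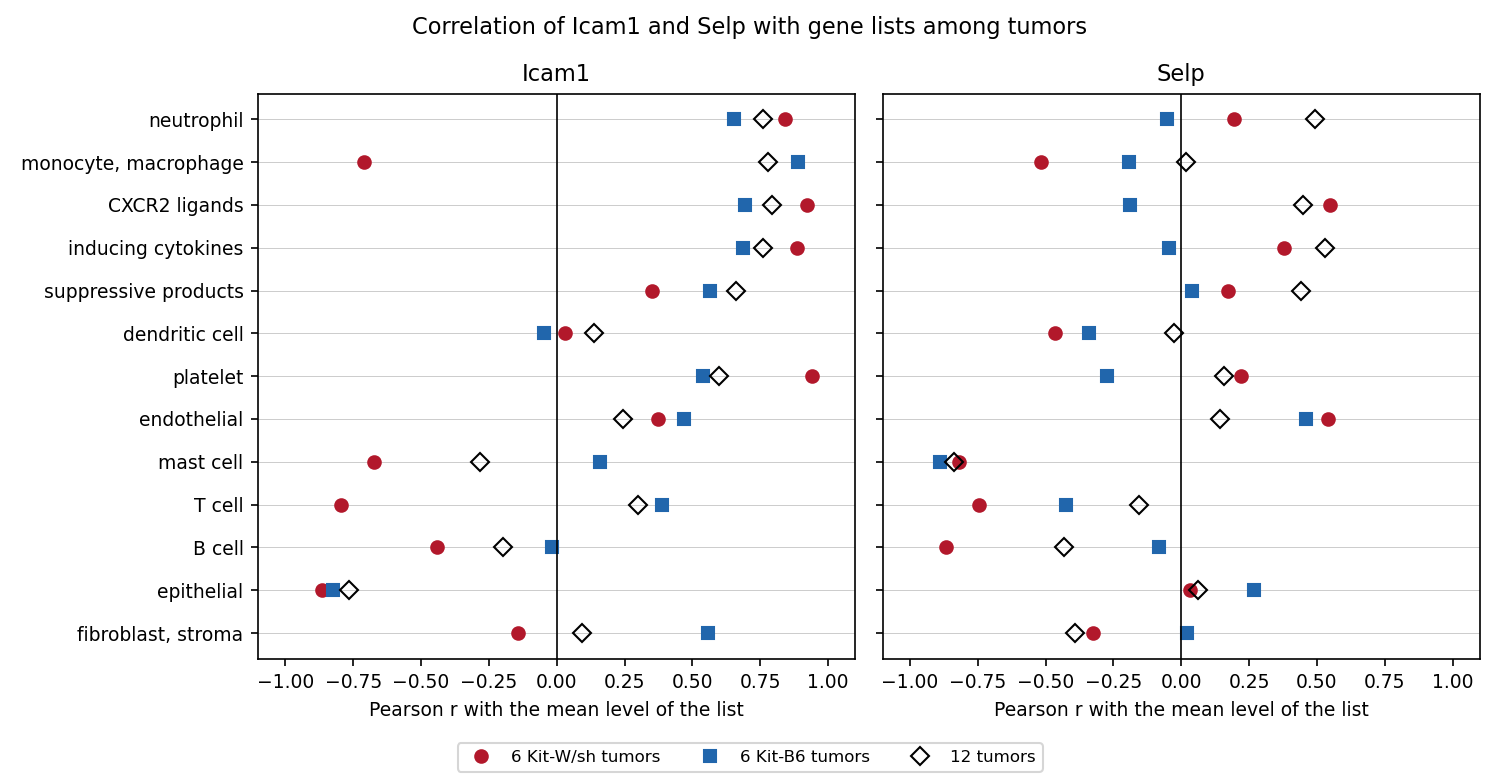
Pearson r of Icam1 (left) and Selp (right) with the mean level of 13 gene lists in 6 Kit-W/sh tumors (circles), 6 Kit-B6 tumors (squares) and all 12 tumors (open diamonds). Selp has an r of -0.819 with mast cell genes in Kit-W/sh tumors and -0.889 in Kit-B6 tumors. Icam1 has an r of -0.711 with monocyte and macrophage genes in Kit-W/sh tumors and 0.888 in Kit-B6 tumors, values that become 0.59 and 0.224 without 2 libraries of each genotype.

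By likeness of pattern, measured as Pearson's r of log2(CPM + 1) over the 12 tumors with each of 798 genes, the 5 genes nearest to Icam1 were Msr1 at 0.888, Fcrlb at 0.887, Tgif1 at 0.886, Cd44 at 0.880 and Ms4a6d at 0.873. The lowest were Ceacam20 at -0.922 and Pcx at -0.952. Both kept their sign within each genotype, with Pcx at -0.956 in Kit-W/sh tumors and -0.958 in Kit-B6 tumors. Msr1 and Fcrlb had 0.49 and 0.26 within Kit-W/sh tumors, against 0.95 and 0.93 within Kit-B6 tumors. Tgif1, Cd44 and Ms4a6d had 0.95, 0.78 and 0.84 within Kit-W/sh tumors. Fcrlb averaged only 5.93 CPM in Kit-B6 tumors, near the floor. The 5 nearest to Selp were Cdc7 at 0.819, Psmg3 at 0.786, Thada at 0.780, Abt1 at 0.771 and Park7 at 0.769. The lowest were the mast cell gene Cpa3 at -0.814 and Zeb1, a transcription factor of mesenchymal cells, at -0.821. No gene was among the 5 nearest of both Icam1 and Selp, and these values are a ranking with no test.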

How the data were processed

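Per the labels' protocols, libraries were multiplex PCR amplicons of a QIAseq mouse immuno-oncology panel, read on a MiSeq. The deposited tables held whole-number counts per panel gene, and whether the authors counted reads or molecular tags is not given in the sources used here. The submitters' processing notes name mm9 and DESeq2 without a role or version. Each table held 993 entries, of which 5 control amplicons had 0 counts and were left out, and 22 genes had 0 counts in every library.

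Counts were fitted with edgeR 4.0.16 in R 4.3.3 (quasi-likelihood test, TMM, filterByExpr at 10 counts and a total of 15, Benjamini-Hochberg over all genes tested, threshold 0.05). Genotype was compared within stage, and stage within all 17 libraries. DESeq2 1.42.0, other scalings, no filter, a replicate block, Kit-B6 tumors 4 and 5 summed and leaving out each library were alternatives. The levels shown used a pseudocount of 1 CPM on the log scale. Correlation p-values came from 100000 permutations for 12 tumors and from all pairings for 6. A list's level was the mean over its genes that averaged at least 10 counts in the tumors. Scripts were tested on simulated data. No pair of libraries in a group agreed within counting noise (lowest chi-square per degree of freedom 13.23), and intervals and floors cover counting error only.

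The genes, lists and motifs were chosen with earlier results of these data known. Named genes were Icam1 and Selp, up to 6 genes of a list with the smallest p, and the 5 nearest and 2 farthest by likeness. Binding partners and other vascular adhesion genes were named by role after their values were seen.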

Additional observations from a re-analysis of the deposited data

Results flagged for a closer look

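In groups of 6 tumors, a library was singled out where its gap to the nearest other took up much of the group's range. Chance meets this rule in about 1 group in 20 only for independent, normally distributed values. Genes were checked as unlogged CPM, some were named after their values were seen, and lists share genes. The rule was met in 24 of 120 groups, a count that cannot be set against that rate. Neither Icam1 nor Selp was among them.

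The library labelled Kit-W/sh tumor 2 was highest of the Kit-W/sh tumors for Cpa3 (460 CPM), Kit (258 CPM), Tpsb2 (185 CPM), Vcam1 (231 CPM), Csf1r (497 CPM) and Car4 (4790 CPM), and for the mean log2(CPM + 1) of mast cell genes (7.26) and T cell genes (6.70). Kit-B6 tumor 5 was highest of the Kit-B6 tumors for Cpa3 (256 CPM), Tpsb2 (275 CPM) and the mast cell list (7.06). Kit-B6 tumor 4 was lowest of the Kit-B6 tumors for Itgb2 (76.2 CPM), Cxcr2 (29.8 CPM) and the neutrophil (5.41), cytokine (4.76) and Cxcr2 ligand (5.27) lists, and highest for Gcnt1 (1490 CPM), Acp5 (4470 CPM) and Car4 (14800 CPM). Of the other Kit-W/sh tumors, number 3 was lowest for Cd34 (229 CPM), number 6 highest for Madcam1 (203 CPM), and number 5 highest for Pf4 (334 CPM) and Ppbp (819 CPM). Kit-B6 tumor 2 was highest of the Kit-B6 tumors for the B cell list (7.10).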

How the results depend on the processing

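Without each library in turn, the log2 fold change between genotypes in tumors ranged from 0.23 to 0.68 for Icam1 and from 1.09 to 1.45 for Selp, and neither passed under any alternative. With Kit-B6 tumors 4 and 5 summed no edgeR result of Icam1 or Selp changed its call. The stage change ranged in Kit-W/sh mice from 2.40 to 3.03 for Icam1 and from 2.83 to 3.85 for Selp, and in Kit-B6 mice from 2.12 to 2.72 for Icam1 and from 2.44 to 3.43 for Selp. Selp in Kit-W/sh mice lost its call without Kit-W/sh preneoplastic sample 1 (2.83), where the lone sample left is assumed to vary like the other groups. The other stage calls of Icam1 and Selp passed under every alternative run. Without libraries in turn, the Icam1 difference in preneoplastic colon ranged from -0.23 to 0.44 and turned negative without Kit-B6 sample 1 (-0.05) or Kit-W/sh sample 2 (-0.23). The difference between stage changes ranged from -0.060 to 0.63 for Icam1 and from -0.20 to 1.07 for Selp, and both turned negative without Kit-B6 preneoplastic sample 2.

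The count of genes called between tumors was 0 with edgeR and 24 with DESeq2. In preneoplastic colon it was 1, against 20 with DESeq2, 0 unscaled, 0 with all 17 libraries in 1 fit, and 0 to 16 without libraries in turn. Between stages in Kit-W/sh mice it was 345, against 180 with reference gene scaling and 132 to 367 without libraries in turn, and in Kit-B6 mice 265 to 425. For the difference between stage changes it was 0, against 1 with DESeq2 and 0 to 2 without libraries in turn. The cause of these shifts was not tested.

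Samples with the same number did not deviate together in every pair (correlations of -0.229 to 0.364 in tumors, 2 of 6 tumors closest to their own number), so the numbers were not taken as pairs. With a replicate block the Selp difference between tumors was 1.25 with an edgeR adjusted p of 0.232, the Icam1 difference was 0.55, and 0 genes were called in preneoplastic colon.

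The adjusted p of Icam1 with cytokines, Cxcr2 ligands and epithelial genes was above 0.05 under each of the 4 alternatives fixed for each list. Summing Kit-B6 tumors 4 and 5 was added for the correlations after the data were seen, and under it the r of Icam1 changed sign with dendritic cell (-0.15), T cell (-0.163) and stromal genes (-0.403), as did that of Selp with monocyte and macrophage (-0.0246) and epithelial genes (-0.274). Several small correlations changed sign without Kit-B6 tumor 4, and are given without that tumor and then without the library labelled Kit-W/sh tumor 2. The r of Selp was -0.361 and 0.0796 with monocyte and macrophage genes and -0.0395 and 0.327 with adhesion genes. The r of Icam1 was -0.264 and 0.157 with dendritic cell genes, -0.286 and 0.421 with T cell genes and -0.4 and 0.0965 with stromal genes. That of Selp with dendritic cell genes was -0.145 and 0.0393, and 0.0538 unscaled, and that of Icam1 with interferon and STAT genes was 0.0136 unscaled. Without either library the r of Icam1 ranged from 0.391 to 0.769 with neutrophil genes and from 0.407 to 0.815 with monocyte and macrophage genes. Without either library the r of Selp ranged from 0.463 to 0.533 with neutrophil genes. Few Selp and Sele counts limit what could be detected in preneoplastic colon.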

Other observations

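Icam1 and 11 genes of NF-κB signalling had a Pearson r of 0.0993 over 12 tumors (permutation p of 0.767, adjusted 0.839) and a rho of 0.434 (permutation p of 0.161, adjusted 0.392). Without Kit-B6 tumors 4 and 5, the libraries farthest from the median, r was 0.783, and without Kit-B6 tumor 4 alone it was 0.751. With Kit-B6 tumors 4 and 5 summed r was 0.801 (permutation p of 0.00371, adjusted 0.0433). Within Kit-W/sh tumors r was 0.773 (adjusted exact p of 0.254), or 0.215 without tumors 2 and 5, and within Kit-B6 tumors it was -0.321 (adjusted exact p of 0.967), or -0.407 without tumors 1 and 4. Selp and 7 cytokine receptor genes had an r of 0.592 (permutation p of 0.0412, adjusted 0.144) and a rho of 0.692 (permutation p of 0.0151, adjusted 0.257), and r was 0.764 without Kit-W/sh tumors 5 and 6. With Kit-B6 tumors 4 and 5 summed this r was 0.659 (adjusted permutation p of 0.228) and rho was 0.791 (adjusted permutation p of 0.0466). Within Kit-W/sh tumors r was 0.413 and within Kit-B6 tumors -0.0664, with adjusted exact p-values of 0.647 and 0.967. Over 12 tumors neither relation passed the adjustment over 35 relations.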
